A study of Mus musculus with 6 samples.

Results

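Interferon-stimulated genes are the genes that cells switch on when interferon, or a sensor of foreign nucleic acid, signals to them. The 36 mouse genes described here form a list of sensors, transcription factors, antiviral effectors and antigen-processing genes, matched by symbol to the count tables. All 36 were among the 31053 genes listed. They were followed in 6 single-cell libraries, 1 for each of sham, infarct and peri-infarct tissue of heart and of brain. A sham library is the control of its organ. All animals were Tbx18CreER/+;Rosa26tdT/+ mice given tamoxifen for 4 days, after which a week passed, so that cells with an active Tbx18 promoter at that time, and their descendants, carry tdTomato. Heart injury was ligation of the LAD coronary artery, and brain injury was photothrombosis. The cells were sorted for tdTomato from ventricles freed of atria or from cortex, so every share below is a share of sorted cells and can be set by the sort. The age of the mice, the time after injury and the number of mice in a library are not given in the sources used here.

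With 1 library per group there is no replicate and no test. A difference between 2 libraries is a difference between those libraries. The intervals printed are exact 95% intervals that cover counting error only. Levels are in CPM, the usual scale that expresses a gene's UMIs relative to all summed UMIs of a cell class. A gene entered a comparison when its mean over both libraries was at least 50 CPM, and it was called when (CPM + 1) differed at least 2-fold. Both injury libraries of an organ were set against the same sham library, so those comparisons are not independent of each other.

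Interferons of type I act through a receptor made of Ifnar1 and Ifnar2 and the kinases Jak1 and Tyk2. A complex that includes Stat2 and Irf9 then binds a short DNA element in the promoters of responding genes. The products detect foreign RNA, block viral entry and translation, or present antigen. Pericytes are the mural cells of capillaries, and endothelial cells are known to carry a resting level of these genes in many vascular beds.

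The DNA element can be seen in the sequences of the members themselves. RefSeq promoter windows of 300 bases (250 before and 50 after a transcription start, build GRCm38.p6) were matched by symbol for 27 of the 36 members. The letters GAAA, any 2 bases and again GAAA, searched on both strands with overlapping copies counted, occurred in a window of 13 of these 27 genes (48.1%). They occurred in a window of 1079 of all 27025 genes in the same table (3.99%). A match is a description of the letters and not a measured binding site. The 160 bases before the start are shown for 5 members whose levels are given below, all chosen because they hold the letters there, 5′ to 3′ on the strand of the gene, with the matched letters in capitals.
Isg15, chr4:156200819-156200978, minus strand: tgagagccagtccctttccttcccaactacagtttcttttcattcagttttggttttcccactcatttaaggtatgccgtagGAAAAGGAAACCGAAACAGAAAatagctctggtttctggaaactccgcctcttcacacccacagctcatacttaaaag
Ifit1, chr19:34640729-34640888, plus strand: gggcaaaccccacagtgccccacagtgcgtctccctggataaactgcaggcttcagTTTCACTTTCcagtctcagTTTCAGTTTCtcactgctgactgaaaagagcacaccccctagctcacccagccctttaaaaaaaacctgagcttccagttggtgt
Ifit3, chr19:34583369-34583528, plus strand: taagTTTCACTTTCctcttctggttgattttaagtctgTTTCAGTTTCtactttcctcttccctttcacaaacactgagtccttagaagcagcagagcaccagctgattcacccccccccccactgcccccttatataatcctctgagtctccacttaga
Bst2, chr8:71537473-71537632, minus strand: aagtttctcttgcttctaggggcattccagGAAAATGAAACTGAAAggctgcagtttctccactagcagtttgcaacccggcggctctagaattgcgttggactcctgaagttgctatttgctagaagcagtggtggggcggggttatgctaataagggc
Rsad2, chr12:26456453-26456612, minus strand: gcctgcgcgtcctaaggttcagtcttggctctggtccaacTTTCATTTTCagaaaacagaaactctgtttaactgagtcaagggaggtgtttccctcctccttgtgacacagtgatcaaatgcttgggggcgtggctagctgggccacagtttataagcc
Isg15 carried 3 overlapping copies, the first of them 78 bases before the start. Ifit1 and Ifit3 each carried 2 separate copies. Ifit2 lies beside both on chromosome 19 (34550694 to 34576419), and its windows held none, nor did that of Irf7. No match says only that these letters are not in the windows searched.

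Cells were assigned by their own marker genes, none of which is a member. Pericyte-gated cells numbered 809, 917 and 514 in sham, infarct and peri-infarct heart and 1415, 413 and 1023 in the same order in brain. Their summed pericyte markers (Rgs5, Kcnj8, Abcc9 and others) lay between 11747 and 45250 CPM. The 10 macrophage markers summed to between 9 and 36 CPM in them. The 10 endothelial markers summed to 581, 687 and 727 CPM in sham, infarct and peri-infarct brain pericytes, against 10872 to 12446 CPM in brain endothelial cells.

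The libraries differed in depth and purity. Kept cells numbered 2071 to 13630 per library, with medians from 1408 UMIs in sham heart to 26159 in infarct brain. In sham heart, fibroblast markers summed to 7231 CPM in pericyte-gated cells, against 3696 in infarct and 2753 in peri-infarct heart, and 165 of its 809 pericyte-gated cells lay within 20% of the gate, against 24 of 917 in infarct heart. Between 24 and 204 cell barcodes were listed in both libraries of each pair, up to 7.88% of the smaller library. Without these cells 189 of 196 values stayed within their interval, or within 1.5 times for counts. The 7 others concern fibroblasts and endothelial cells of brain and are named there or in the closing section.

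Pericytes of infarct brain had the highest level of the list among the pericyte groups. The 36 members together reached 5117 CPM (5001 to 5235) there, against 1555 (1518 to 1592) in sham and 2289 (2229 to 2351) in peri-infarct brain. Ifitm3, a membrane protein that blocks virus fusion, made up 60.8% of that sum in infarct and 64.4% in sham. A core of 15 members without Ifitm3 was therefore read separately: Isg15, Ifit1, Ifit2, Ifit3, Irf7, Usp18, Rsad2, Oasl2, Oas1a, Oas2, Mx1, Cmpk2, Rtp4, Ifi44 and Zbp1. It was meant to leave out members high in many cell types, but it is a chosen list that follows no level rule. Isg15 was at 50 CPM or more in 21 of 28 pairs of class and library, whereas Dhx58, left out, reached that level in 0. Endothelial cells and brain fibroblasts of sham tissue carried the core too. The core summed to 859 CPM in infarct, 98.2 in sham and 188 in peri-infarct brain pericytes. Infarct was 8.75-fold above sham (7.83 to 9.79) and 4.56-fold above peri-infarct (4.09 to 5.09), and peri-infarct was 1.92-fold above sham (1.68 to 2.20). All 3 levels were separate by their counting intervals.

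The pericyte gate held different cells in the 3 brain libraries. In a clustering made without members and pathway genes, 248 of the 413 infarct pericytes lay in cluster 22, which held 30 of the 1023 peri-infarct pericytes and under 20 of the sham ones, while 935 of 1415 sham pericytes lay in cluster 0. Comparisons of the whole class therefore mix a difference in level with a difference in which cells were present. In cluster 22 the core was at 1036 CPM (977 to 1099) in infarct and 221 (143 to 326) in peri-infarct. In cluster 0, where all 3 libraries had cells, the core was at 447 CPM (332 to 590) in 45 infarct cells, 82.4 (72.1 to 93.7) in sham and 159 (136 to 185) in peri-infarct. In cluster 5 it was at 394 (282 to 537), 59.7 (32.7 to 100.2) and 202 (172 to 235) in that order. Cluster 7 had 24 infarct cells, and in the same order its core was at 180 (96.1 to 308), 101 (66.8 to 147) and 123 (75.1 to 190). In cluster 14 the core was at 135 (43.7 to 314) in 21 infarct cells and 117 (89.9 to 150) in sham. Infarct was thus highest with a separate interval in clusters 0 and 5, whereas its interval overlapped that of sham in clusters 7 and 14. Its highest value was in cluster 22.

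**Figure D1:**
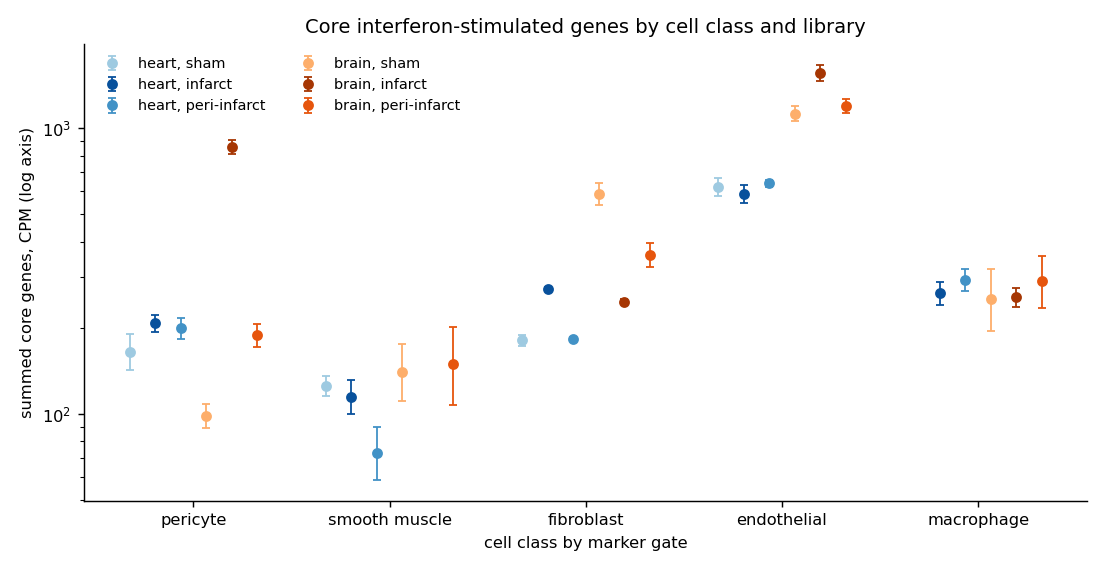
Summed CPM of the 15 core genes (log axis) in 5 cell classes of each library, where the class had at least 20 cells; points are values and bars exact 95% Poisson intervals for counting error. Pericytes of infarct brain lie at 859 CPM, above every other pericyte group, while endothelial cells lie between 589 and 1563 CPM in every library.

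All 36 members had a higher level in infarct than in sham brain pericytes, and 25 of them at least 2-fold at any level, but most were too low for a call. Of the 8 tested members, 7 were at least 2-fold higher and none lower, against 3.85% higher and 2.78% lower among all 3918 genes tested. Isg15, Ifit3, Ifi27l2a, Psmb8 and Lgals3bp were under 50 CPM in sham and were tested only because they were high in infarct, so their calls were fixed by the level minimum and the count of 7 supports nothing by itself. Ifitm3 and Bst2 were above the minimum in both libraries. The number of members called depended on the minimum level, with 17 at a minimum of 20 CPM and 3 at 100 CPM. Infarct against peri-infarct gave 8 of 12 tested members higher and none lower, against 3.05% and 1.17% of all genes. Of those called, Isg15, Ifit3, Ifi27l2a, Irf7, Rtp4, Psmb8 and Lgals3bp were under 50 CPM in peri-infarct and were tested only through infarct. That count therefore supports nothing by itself either.

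Among the antiviral effectors, Isg15, a ubiquitin-like protein that is attached to other proteins, was at 284 CPM in infarct, 23.4 in sham and 46.5 in peri-infarct brain pericytes, a 12.1-fold difference between infarct and sham (9.73 to 15.2). Ifit3, whose family binds viral RNA, was at 144, 12.8 and 31.8 CPM in the same order. Ifi27l2a, a small mitochondrial protein of the interferon response, was at 129, 5.57 and 7.54 CPM. All 3 were highest in infarct, and Isg15 and Ifit3 in peri-infarct lay above sham with separate intervals. Ifitm3 was at 3113, 1000 and 1502 CPM, and Bst2, which tethers budding virus to the cell surface, at 174, 57.6 and 97.2 CPM. Both also had peri-infarct between the other libraries.

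Several effectors below the level for a call had the same order. Ifit1 was at 70.2 CPM in infarct and 6.50 in sham brain pericytes. Rtp4 was at 82.7 and 7.66 CPM. Rsad2 (viperin), an enzyme that makes a chain-terminating nucleotide, had 33 UMIs in infarct and 2 in sham, a ratio of 49.4 with a wide interval (12.6 to 425). Ifi44 had 36 and 5 UMIs. Oas2, Mx1 and Zbp1 had at most 3 UMIs in either library, so nothing can be read from them. Reads of Ifit1, Ifit3, Oas1a and the Gbp genes can be shared with near-identical neighbours such as Ifit3b, and their single values are uncertain to that extent.

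The transcription factor Irf7, which amplifies the type I response, was at 86.2 CPM in infarct and 6.73 in sham, a 12.8-fold difference (8.49 to 19.9). Irf9 and Stat2 differed less, at 51.4 against 18.1 CPM and 41.0 against 23.7 CPM. Irf1, which also answers interferon gamma, was at 32.0 and 9.51 CPM. Of the RNA sensors and their activator, 3 genes were close to even: the log2 ratio was 0.14 for Ifih1 (MDA5), 0.32 for Ddx58 (RIG-I) and 0.03 for Trim25, which activates RIG-I, with Ddx58 at 43.8 and 34.8 CPM. Dhx58, the third of the RIG-I-like receptors, had 12 UMIs in infarct and 4 in sham. Isg15, Ifit3, Ifi27l2a and Irf7 thus differed by more than Ifih1, Ddx58 and Trim25 in the same cells.

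Usp18, which removes Isg15 and damps receptor signalling, was at 23.6 and 2.09 CPM. The antigen-processing members Psmb8, Psmb9 and Tap1 (2 subunits of the immunoproteasome and a peptide transporter) lay between 46.6 and 92.4 CPM in infarct and between 11.4 and 29.0 in sham. The secreted glycoprotein Lgals3bp was at 89.6 and 18.8 CPM. Of the guanylate-binding proteins, Gbp3 was at 19.5 and 3.95 CPM, Gbp2 at 12.5 and 7.19, and Gbp7 at 52.1 and 40.1. Xaf1, Parp14, Ifi35, Ifit2, Oasl2, Cmpk2, Oas1a and Ly6e had log2 ratios of infarct to sham between 0.63 and 2.56.

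**Figure D2:**
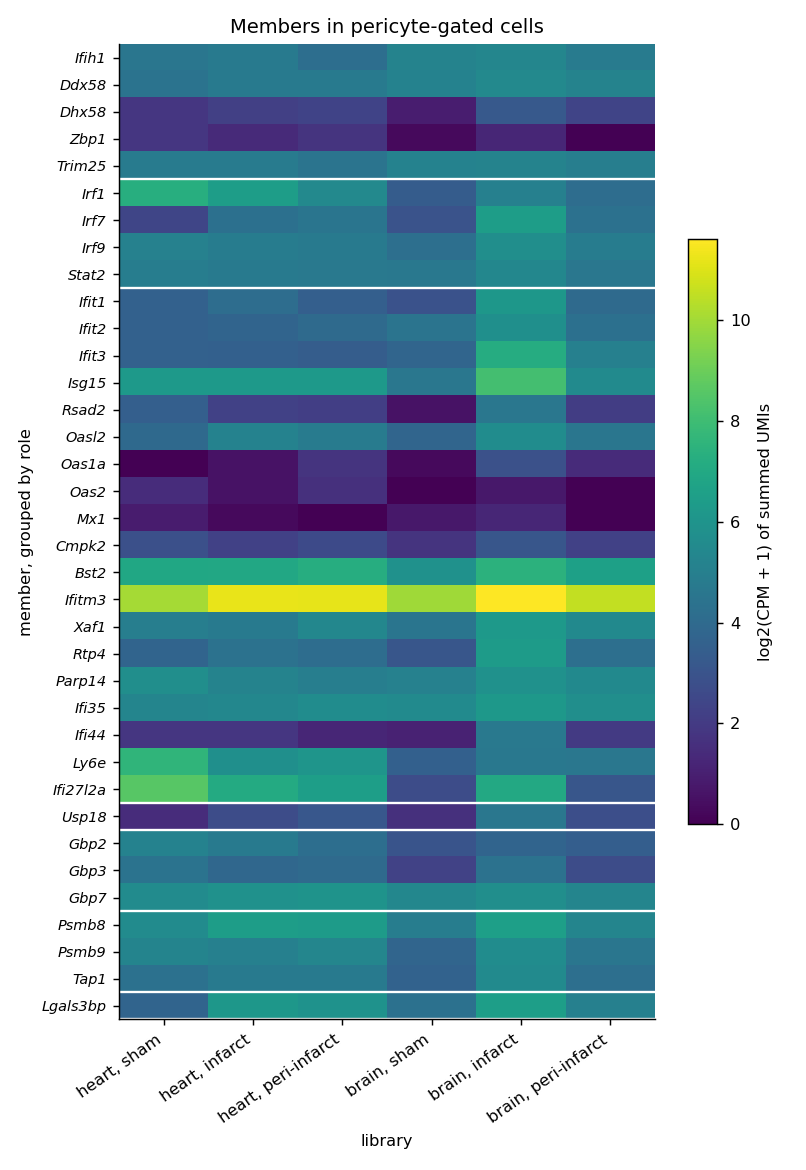
Level of each member, as log2(CPM + 1) of summed UMIs, in pericyte-gated cells of the 6 libraries; white lines separate roles, from the top sensors, transcription factors, antiviral effectors, the brake Usp18, guanylate-binding proteins, antigen processing and Lgals3bp. The column of infarct brain is brighter than that of sham brain in all 36 rows, most of all in Ifi27l2a, Rsad2, Ifi44 and Isg15, whereas between the heart columns Lgals3bp, Irf7, Ly6e and Ifi27l2a differ most in infarct against sham.

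Other genes of the pathway were read from a list of 108 symbols, of which 106 were in the tables. In infarct brain pericytes, 4 receptor genes were tested and none was called. Ifnar1 was at 48.6 CPM in infarct and 60.1 in sham, and Ifnar2 at 199 and 188. Of 4 tested signalling genes none was called. Of 7 tested among the 51 other interferon-stimulated genes, 3 were higher and none lower. These were Cxcl10, a chemokine for T cells, with 174 UMIs in infarct and 2 in sham, Iigp1, an immunity GTPase, at 84.1 and 16.7 CPM, and Ifi27. Cxcl10 and Iigp1 were so low in sham that they were tested only through infarct. Their calls were fixed by the level minimum, and the count of 3 supports nothing by itself. The feedback inhibitor Socs3 was at 197 and 43.2 CPM, and in antigen presentation 2 of 9 tested genes were higher, Psmb10 and H2-T23. In peri-infarct brain pericytes 0 of 23 tested pathway genes were called, and Cxcl10 had 3 UMIs.

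Few transcripts of the interferons themselves were found. Over all kept cells, Ifnb1 had 4 UMIs, all in 1 cell of peri-infarct brain. Ifng had 14 UMIs in 2 cells of infarct brain and 3 UMIs in 1 cell of sham brain. The 5 Ifna genes on the list had 0 UMIs in every library. Ifnk, an interferon of epithelia, had 43 UMIs in sham brain, 21 in brain infarct and 15 in the peri-infarct cortex.

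To ask whether few or all pericytes carried the signal, each cell was thinned at random to 1000 UMIs, and cells with fewer were left out. Of 388 infarct brain pericytes, 32.2% (27.6 to 37.1) had a core UMI, against 7.68% (6.33 to 9.20) of 1394 in sham and 11.9% (9.91 to 14.1) of 986 in peri-infarct. Had the core UMIs of infarct been spread evenly, as a Poisson distribution of the same mean, 54.6% of cells would hold one. The variance was 4.58 times the mean in infarct, 2.01 times in peri-infarct and 1.42 times in sham, where an even spread gives a value of 1. The signal was thus broader than in sham and also more concentrated than an even spread.

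A cell was called interferon-rich when its 1000 UMIs held at least 3 core UMIs from at least 3 core genes. This was so for 26 infarct brain pericytes, 6.70% (4.42 to 9.66), against 4 cells or 0.287% (0.0782 to 0.733) in sham and 6 cells or 0.609% (0.224 to 1.32) in peri-infarct. The 26 cells held 52.9% of the core UMIs. The other 362 cells still had a mean of 0.398 core UMIs, against 0.0791 in the corresponding sham cells, and 27.3% of them had one, against 7.41%. With rich cells left out of the sums of each library, the core was 5.01-fold above sham, in place of 8.75-fold. Per gene, Isg15 was found in 12.4% of thinned infarct pericytes, and in 7.73% once the rich cells were left out, against 1.73% of sham cells. Most of these cells held a single core UMI, and free RNA can give such UMIs. At the same 1000 UMIs, rich cells included, 15.9% of fibroblasts and 15.4% of macrophages of infarct brain had a core UMI. Both lay below the 32.2% of pericytes. Endothelial cells of infarct brain lay above pericytes: of 82 cells, 22 held 1 core gene, 17 held 2 and 16 held 3 to 5. In sham brain the pericyte share of 7.68% lay below the 39.7% of fibroblasts and the 21.6% of the 37 macrophages. The part of free RNA in the remaining cells was not tested. None of the 26 cells had a barcode shared with another library.

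Ifitm3 behaved as a gene of most cells. It was found in 82.7% of thinned infarct brain pericytes, 70.5% in peri-infarct and 57.7% in sham, and leaving out the rich cells moved the infarct share to 81.8%. Bst2 was found in 12.1%, 7.91% and 5.38% in the same order.

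**Figure D3:**
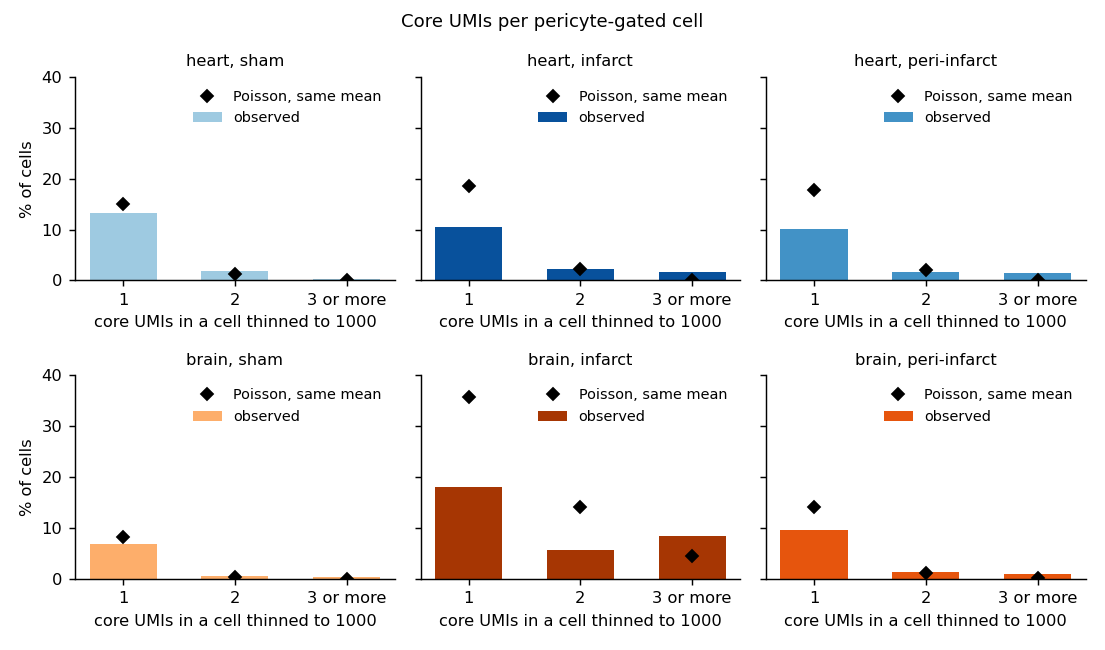
Share of pericyte-gated cells with 1, 2 or at least 3 core UMIs after thinning to 1000 UMIs (bars), beside a Poisson distribution of the same mean (diamonds), in each library. In infarct brain 8.51% of cells held 3 or more core UMIs and 18.0% held 1, where the Poisson values are 4.58% and 35.8%; in the sham libraries bars and diamonds lie close together.

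Heart pericytes, read as a whole class, differed less between libraries. The core was at 165 CPM (142 to 190) in the sham library, at 207 (193 to 221) after infarction and at 199 (183 to 216) in peri-infarct tissue, ratios to sham of 1.25 and 1.21. The shares of thinned cells with a core UMI were 15.5%, 14.4% and 13.0% in that order, with overlapping intervals. Interferon-rich cells were 0 of 556 in sham, which allows a share of up to 0.540%, 10 of 914 (1.09%, lower limit 0.526%) in infarct and 7 of 507 (1.38%, 0.557 to 2.82) in peri-infarct. The sham limit is 3 counts of 556 and not an exact interval like the others. It therefore cannot show that sham is separate from either injury library. Without the rich cells the ratios of the core to sham were 0.99 and 0.91, but cells chosen by their core UMIs must lower the sum when left out, and sham had none to leave out. With thinning to 2000 UMIs, 2 of 119 sham cells (1.68%, 0.204 to 5.94) were rich. Infarct had 2.08% (1.24 to 3.27) and peri-infarct 1.46% (0.591 to 2.99). These intervals overlap, and with 2 rich sham cells this setting cannot decide on a difference. The gate held different cells here as well: 466 of 809 sham pericytes lay in cluster 1 and 31 in cluster 15, which held 787 of 917 infarct and 421 of 514 peri-infarct pericytes. In cluster 15 the core was at 67.4 CPM (24.7 to 147, 6 UMIs) in sham, 196 (182 to 212) in infarct and 205 (186 to 224) in peri-infarct. Both injury libraries thus lay above sham with separate intervals in this cluster, unlike the small ratios of the whole class, but its sham value rests on 6 UMIs.

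Of 8 members tested in heart pericytes in each comparison, 1 was higher and 2 lower in infarct than in sham (5.63% and 5.75% of all genes), and 1 was higher and 3 lower in peri-infarct (5.97% and 6.46%). Ifitm3 was the higher one in both, at 2373 CPM in infarct and 2321 in peri-infarct against 1041 in sham, and was found in 86.1%, 86.2% and 62.1% of thinned cells. Ly6e, a surface protein linked to virus entry, was at 54.2 and 65.9 CPM against 191, and Ifi27l2a at 134 and 89.1 against 383. Irf1 was at 86.2, 43.0 and 153 CPM in the order infarct, peri-infarct and sham, and was called in peri-infarct only. Ifi27l2a and Ly6e were also high in the fibroblasts of sham heart (892 and 192 CPM), the library with the most fibroblast marker RNA in its pericyte gate; the part of that RNA in these lower values was not tested. The median log2 ratio of all genes tested was 0.13 in infarct and 0.16 in peri-infarct, so ratios are read against a small upward shift. Infarct against peri-infarct called none of 9 tested members in either direction (0.523% and 0.154% of all genes), and Isg15 was at 76.1 and 73.8 CPM.

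Irf7 and Lgals3bp, both under 50 CPM on average, had higher levels in both injured hearts. Irf7 was at 18.3 and 21.5 CPM in infarct and peri-infarct against 4.36 in sham pericytes, and Lgals3bp at 70.2 and 60.1 against 12.2. Psmb8 was tested and fell short of 2-fold, at 87.6 and 80.9 CPM against 47.1. Isg15, Ifit3 and Ifit2 were nearly level across the 3 heart libraries. Of 22 tested genes of the wider pathway, 4 were higher and 1 lower in infarct, and 4 higher and 3 lower in peri-infarct. Irf8, Ifitm1 and Psmb10 were higher in both, with Ifitm1 at 369 and 308 CPM against 148. H2-Q4 was lower in both, and Socs3 and Iigp1 in peri-infarct. Ifitm3 was called higher in infarct in the pericytes of both organs; the difference between organs was not tested.

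Fibroblasts of infarct heart, 5931 cells, gave the deepest view of the concentrated pattern. Their core was at 273 CPM, against 181 in sham and 183 in peri-infarct heart, a ratio to sham of 1.51 (1.44 to 1.59). Their clusters differed too: 3621 of 5487 sham fibroblasts lay in cluster 0, and 2378 of 5931 infarct fibroblasts in cluster 25 and 1003 in cluster 26, where sham had under 20. In cluster 10, shared by all 3 libraries, the core was at 238 CPM (184 to 304) in 52 sham cells, 247 (235 to 260) in infarct and 188 (180 to 195) in peri-infarct. In cluster 8 it was at 420 (333 to 524) in 33 sham cells, 328 (315 to 342) and 192 (183 to 200.1) in that order. In cluster 6 it was at 179 (138 to 227) in sham, 286 (240 to 337) in infarct and 143 (135 to 150) in peri-infarct. In cluster 0 it was at 179 (168 to 190), 158 (84.0 to 270) and 78.3 (33.8 to 154) in the same order. Infarct exceeded sham by its interval in cluster 6, but not in clusters 0, 8 and 10. Of 8 tested members only Lgals3bp was higher (75.2 against 29.5 CPM) and only Irf1 lower (80.2 against 164), with 6.95% of all genes higher and 6.21% lower. Lgals3bp was tested only through infarct, and at its sham level the call was fixed by the level minimum. In peri-infarct none of 7 was higher and Irf1 alone was lower (3.21% and 3.02%). The share of thinned cells with a core UMI was 15.4% in infarct, 14.0% in sham and 13.0% in peri-infarct. Interferon-rich cells were 86 of 5923 (1.45%, 1.16 to 1.79) in infarct, 33 of 4754 (0.694%) in peri-infarct and 12 of 4452 (0.270%) in sham. The 86 cells held 32.3% of the core UMIs, up to 9 of the 15 core genes were found in a single thinned cell, and the mean of the other cells was 0.192 core UMIs, against 0.163 in the corresponding sham cells. Thinning to 2000 UMIs kept the order of infarct and sham, at 3.68% and 1.35%.

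**Figure D4:**
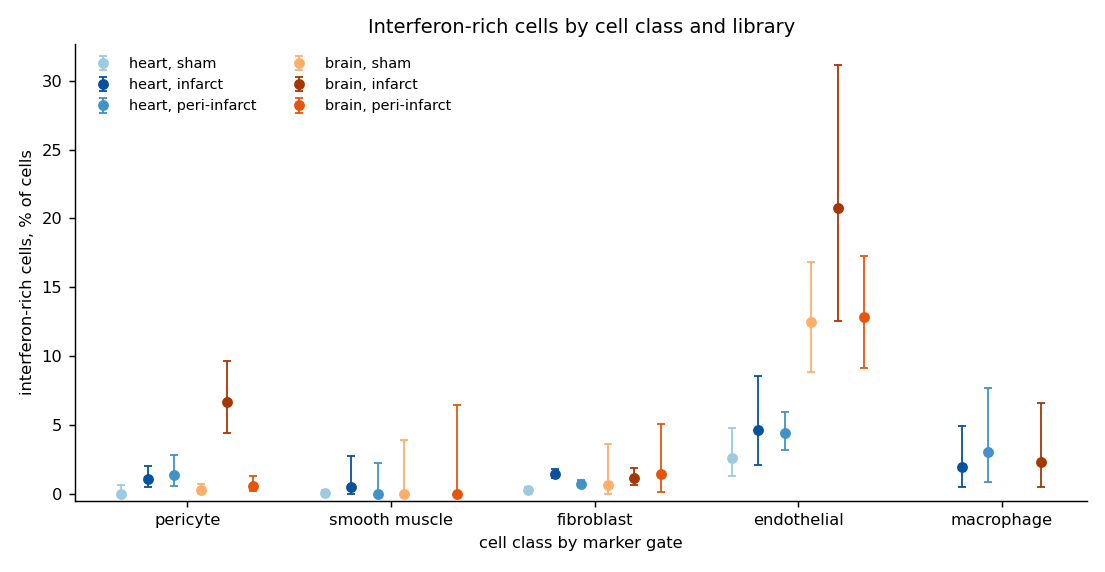
Share of interferon-rich cells, at least 3 core UMIs from at least 3 core genes after thinning to 1000 UMIs, by cell class and library, for classes with at least 50 thinned cells; bars are exact 95% Clopper-Pearson intervals for counting error. Endothelial cells of brain (12.5% to 20.7%) and pericytes of infarct brain (6.70%) have the highest values, and the other groups lie at 4.62% or below. The lower limit of these pericytes is under 4.62%, and the order depends on depth. At 2000 UMIs, 14.5% of endothelial cells of sham heart were rich, against 13.1% of pericytes of infarct brain.

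Genes that had no part in choosing the rich cells were read in them. In infarct brain pericytes, 17 of the 19 tested members outside the core were at least 2-fold higher in the 26 rich cells than in the other 362, against 3.48% of all genes. Members such as Ly6e and Parp14 reached the level minimum only through the rich cells, so that count is a description. Over all 21 members outside the core at any level, Ifi27l2a and Psmb8 alone were under 2-fold. Parp14 was at 248 CPM in rich and 38 in other cells, Bst2 at 540 and 137, and Ly6e at 98 and 17. Ifi27l2a went the other way, at 83 and 135 CPM, with 11 UMIs in the rich cells. Of the wider pathway, 15 of 36 tested genes were higher, led by Ifit3b (308 against 19 CPM), whose reads can be shared with the core gene Ifit3, and by Phf11d and Irgm1. Genes such as Ifit3b reached the level minimum only through the rich cells, so that count too is a description. Cxcl10 was at 435 CPM in the rich cells and 90 in the others, so it was present in both sets. Macrophage markers summed to 22.5 CPM in the rich cells and 36.6 in the others, and endothelial markers to 608 and 696 CPM.

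The same reading in fibroblasts of infarct heart gave 19 of 20 tested members higher in rich cells, against 2.92% of all genes. Bst2 was at 1073 and 184 CPM, Gbp2 at 310 and 31, and Ifitm3 at 3418 and 1104. Irf1 was the exception, at 119 and 80 CPM. Cxcl10 had 531 CPM in the rich cells and 7 in the others, and Iigp1 442 and 18. In peri-infarct heart fibroblasts 17 of 18 tested members were higher, against 3.22% of all genes. Irf1 was again the one tested member that was not, at 88.2 and 68.9 CPM. Members such as Gbp2 in infarct reached the level minimum only through the rich cells, so both counts are descriptions.

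**Figure D5:**
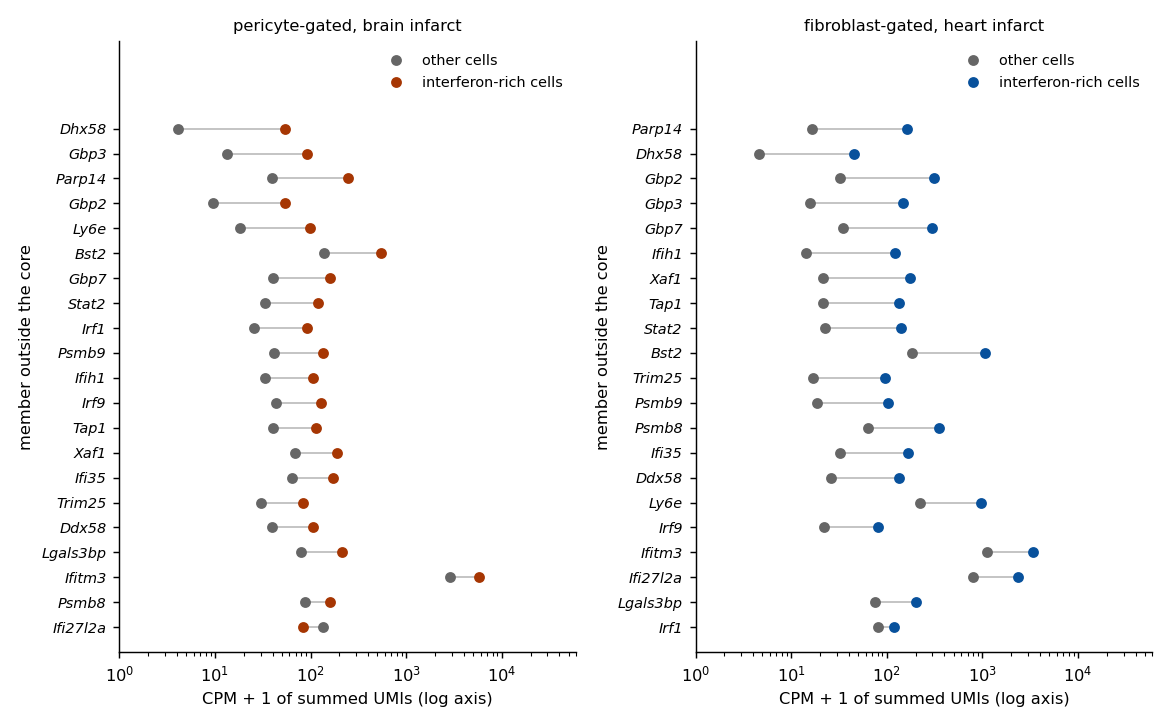
Level, as CPM + 1 of summed UMIs on a log axis, of the 21 members outside the core in interferon-rich cells (coloured) and in the other cells (grey) of pericytes of infarct brain and fibroblasts of infarct heart. Members with a mean under 50 CPM are drawn too; in both panels the coloured points lie to the right of the grey ones except for Ifi27l2a in pericytes.

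Endothelial cells carried the list in every library. Their core was at 622 CPM in sham heart, with 589 for infarct and 640 for peri-infarct tissue, and at 1124, 1563 and 1195 CPM in the same order in brain. Of 18 members tested in infarct heart, 1 was higher and 3 lower (4.33% and 6.59% of all genes), and of 19 in peri-infarct heart 1 was higher and 3 lower (5.30% and 7.12%). Rsad2 was the higher one, at 83.5 and 115 CPM against 39.6 in sham, and Ifit1, Irf1 and Ifi27l2a the lower ones. Of 24 members tested in infarct brain, 1 was higher and 1 lower (4.01% and 7.19%), and in peri-infarct brain 1 was higher and none lower (0.423% and 1.35%). Ifi27l2a was the higher one in brain, at 238 and 133 CPM against 38.5, and Stat2 the lower one in infarct.

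Between 12.5% and 20.7% of thinned brain endothelial cells were interferon-rich in the 3 libraries, sham included, against 2.62% to 4.62% in heart. In sham brain 3 of 18 tested members outside the core were at least 2-fold higher in rich cells (2.96% of all genes), and in peri-infarct brain 1 of 17 (4.68%). In infarct brain it was 9 of 17 (5.14%), in 17 rich cells whose macrophage markers summed to 639 CPM against 22.9 in the others. The part of macrophage RNA in that count was not tested. In peri-infarct heart 8 of 19 were higher (1.33%), and in sham heart, with 10 rich cells, 10 of 17. In sham heart 16.0% of all genes were higher and 13.6% lower. Members such as Ly6e were high in both sets of sham brain endothelial cells, at 1261 and 1094 CPM. Cxcl10 had 100 UMIs in endothelial cells of peri-infarct brain (110 CPM) and 0 in sham, at least 37.1-fold higher when sham is set at 3 counts.

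In brain fibroblasts the core was highest in sham, but the gate held different cells. It was at 588 CPM in 153 sham cells, 247 in 1232 infarct cells and 359 in 140 peri-infarct cells. Of the sham cells 118 lay in cluster 9, where infarct had under 20, and of the infarct cells 502 lay in cluster 20, where sham had under 20. The level and the makeup of the class cannot be told apart in this comparison. In cluster 10 the core was at 1006 CPM (958 to 1057) in 64 infarct fibroblasts and 314 (274 to 358) in 45 peri-infarct ones. Infarct was thus above peri-infarct in this shared cluster, the reverse of their order in the whole class. The sham sum rested on Ifit2, at 300 CPM in sham against 4.1 in infarct and 48.0 in peri-infarct, and on Ifit3, at 112, 13.0 and 73.6 CPM. Isg15 was at 87.9 CPM in sham and Irf7 had 1 UMI. Ifit2 was found in 27.8% of thinned sham cells and Isg15 in 1.32%. Ifitm3 was at 2143 CPM in infarct and 1384 in peri-infarct against 636 in sham, and Psmb8 at 157 and 81.9 against 31.6. Of 9 members tested in infarct, 2 were higher and 3 lower, where 16.2% of all genes were higher and 28.5% lower. In peri-infarct 5 of 11 were higher and 1 lower (4.24% and 9.95%), but 36 of the 140 cells had a shared barcode, and without such cells 1 member was higher. Psmb8 was so low in sham that its calls in both injury libraries were fixed by the level minimum. The same holds for Ifit2 and Ifit3, low in infarct, in the comparison of infarct with sham. These counts therefore support nothing by themselves.

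In smooth muscle cells no member was called higher. Their core was at 125 CPM in sham heart, with 115 for infarct and 73.0 for peri-infarct tissue, and at 140 and 149 CPM in sham and peri-infarct brain. Of 6 members tested in heart, 0 were higher and 3 lower in infarct (7.00% and 7.24% of all genes), and 0 higher and 2 lower in peri-infarct (3.18% and 4.37%). Ifi27l2a and Ly6e were lower in both, and Irf1 in infarct. In heart 1 of 2023 sham cells and 1 of 201 infarct cells was rich. The peri-infarct count was 0 of 160, which allows a share of up to 1.88%. Macrophage-gated cells had a core between 252 and 294 CPM in the 5 libraries with at least 20 of them.

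Peri-infarct brain pericytes were intermediate. Of only 2 tested members, Ifitm3 and Bst2, none was called, with 0.202% of all genes higher and 0.480% lower, and 28 of the 36 members had a higher level than in sham. Their core ratio to sham of 1.92 was 1.89 without the rich cells.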

How the data were processed

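Single-cell 3′ RNA libraries of sorted tdTomato cells were analysed as the gene-by-cell UMI count matrices the authors deposited, 1 per library. Per the submitters' processing notes they were made with Cell Ranger 3.0.2 on mm10. Cells with at least 500 genes and at most 10% mitochondrial UMIs were kept. Each cell was gated on summed marker counts above background. Clusters (Leiden, igraph) were made per organ without members or pathway genes, and levels by cluster were added after seeing the data. Cells passing several gates were left out, and this was the only treatment of doublets; cells passing the pericyte and smooth muscle gates were set apart as well. Counts were summed per class and library for classes with at least 20 cells. Classes with under 50 cells in either library were not compared. Spread was read after thinning each cell to 1000 UMIs.

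Poisson, Clopper-Pearson and conditional binomial 95% intervals cover counting error only. A share of 0 allows up to 3 counts of the total. Named in each comparison were up to 6 tested members with the highest and 3 with the lowest ratio; all 36 were accounted for. Members and lists were chosen with earlier results of these data known. Alternatives covered cell filters, gates, clusters, scaling (edgeR 4.0.16 TMM), level minimum, pseudocount and thinning. Python 3.11.15, numpy 2.4.6, scipy 1.17.1 and pandas 2.3.3 were used, and the calling was tested on simulated data. Promoter sequences came from RefSeq, GRCm38.p6.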

Additional observations from a re-analysis of the deposited data

Results flagged for a closer look

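In 4 cases a gene had opposite directions in heart and brain under the same contrast; the difference between organs was not tested, and each organ has 1 library per condition. The share of all genes with opposite directions is not given here, so these 4 cases are a description only. In pericytes, Ifi27l2a had a log2 ratio of infarct to sham of -1.51 in heart and 4.30 in brain. In endothelial cells the same gene had -1.45 in heart and 2.60 in brain for infarct, and -1.70 and 1.76 for peri-infarct. In fibroblasts, Lgals3bp had 1.32 in heart and -1.55 in brain for infarct. In that brain comparison 28.5% of all genes were lower, and the fibroblast gate held different cells in sham and infarct. The fibroblast markers were highest in the pericyte gate of sham heart, and the part of free RNA in the heart values of Ifi27l2a was not tested.

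Cells that passed the gates of more than 1 class, which entered no comparison, also held interferon-rich cells. Their share was 2.68% in infarct heart and 0.515% in sham heart.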

How the results depend on the processing

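Of the pericyte core ratios, 3 in heart crossed 1 under a setting: infarct to sham and peri-infarct to sham without interferon-rich cells, and infarct to peri-infarct with stricter gates, looser gates (0.976) or cells of several gates. In endothelial cells, brain infarct to sham went from 1.39 to 0.977 and to peri-infarct from 1.31 to 0.846 without rich cells, and heart infarct to sham from 0.947 to 1.51 without the cells of most UMIs. Ratios near 1 in heart fibroblasts, heart endothelial cells and brain smooth muscle crossed it as well. No paired analysis was possible because each group has 1 library. For core ratios of pericytes, 53 of 64 alternative values stayed near the reported one. Stricter gates gave 6.99 (brain infarct to sham), 1.62 (brain peri-infarct to sham) and 0.854 (heart infarct to peri-infarct). Keeping cells of several gates gave 5.16 and 2.73 for brain infarct to sham and to peri-infarct, and 1.51 and 0.731 for heart peri-infarct to sham and infarct to peri-infarct. Leaving out interferon-rich cells gave 5.01 and 2.64 in brain infarct, and 0.994 and 0.910 for heart infarct and peri-infarct to sham.

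Counts of members called higher in pericytes depended most on the level minimum. At 20 CPM they were 17 (brain infarct to sham), 1 (brain peri-infarct to sham), 13 (brain infarct to peri-infarct), 3 (heart infarct) and 2 (heart peri-infarct); at 100 CPM brain infarct gave 3 to sham and 2 to peri-infarct. Brain infarct to peri-infarct gave 5 with Leiden clusters and 4 without rich cells. Heart infarct to peri-infarct gave 1 with TMM scaling, without the cells of most UMIs or without rich cells, and heart peri-infarct to sham gave 2 with cells of several gates.

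Shares of interferon-rich pericytes scale with depth and rule. In brain infarct they were 2.66% at 500 UMIs, 13.1% at 2000, 16.2% unthinned, 12.9% for 2 UMIs of 2 genes and 3.09% for 4 of 4. Brain sham gave 1.13% unthinned and 0.0717% for 4 of 4. Brain peri-infarct gave 2.03% at 2000 and for 2 of 2, 2.64% unthinned, 0 for 4 of 4 and 1.35% with cells of several gates. Heart sham gave 1.68% at 2000 and 1.44% for 2 of 2. Heart infarct gave 0.436% at 500, 2.08% at 2000, 5.23% unthinned and 3.17% for 2 of 2. Heart peri-infarct gave 0.195% at 500, 7.00% unthinned and 0.394% for 4 of 4. The causes were not tested. Leaving out shared barcodes was chosen after seeing the data: brain infarct to peri-infarct then gave a fibroblast core ratio of 0.588, 1 fibroblast and 1 endothelial member higher, and 36-member sums of 3282 CPM in infarct and 2885 in peri-infarct fibroblasts and 6455 in peri-infarct endothelial cells.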

Other observations

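Over all kept cells with at least 1000 UMIs, interferon-rich cells were 34 of 10501 in sham heart (0.324%), 130 of 8649 after infarction and 107 of 7906 from peri-infarct heart (1.35%). The brain libraries held 54 among 2602 sham cells (2.08%), 71 among 2028 infarct cells (3.50%) and 69 among 2291 peri-infarct cells (3.01%). Fibroblasts were 86 of the 130 in infarct heart, pericytes 26 of the 71 in infarct brain, and endothelial cells 36 of the 54 in sham brain.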
